A study of Mus musculus with 26 samples.

Results

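Transcripts of 33 neuronal and synaptic genes were followed through 26 RNA-seq libraries of mouse microglia, the resident macrophages of the brain. The genes were taken as a fixed list of symbols that covers the synaptic vesicle and its fusion machinery, the neuronal cytoskeleton, general neuron genes, excitatory and inhibitory transmitter genes, and postsynaptic signalling. The list sets no threshold on any measured value, but it was chosen with earlier results of these data known. Its counts therefore describe these libraries and are not independent support. All 33 were found among the 52636 genes in the files, and all 33 passed the expression filter, which kept 21371 genes. The mice differed at 2 loci, Tmem106b and Grn, in 7 combinations. Progranulin, the product of Grn, is a secreted glycoprotein that also works inside lysosomes, and TMEM106B spans the membrane of that same compartment.

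Among Tmem106b WT mice, 3 libraries were Grn WT, 5 Grn HET and 4 Grn KO. Among Tmem106b HET mice, 4 libraries were Grn WT, 3 Grn HET and 3 Grn KO, and all 4 libraries of Tmem106b KO mice were Grn WT. Each library also has a dissection label, Entire in 18 libraries and Hemi in 8, which the labels do not explain. Every genotype held 1 or 2 Hemi libraries except Tmem106b HET Grn HET, whose 3 libraries were all Entire. Sex was given for each library (14 F and 12 M). Strain, age, the alleles' construction and the way in which microglia were isolated are not given in the sources used. Nothing says that each library came from its own mouse, so every test below measures the spread between libraries, part of which may be technical. Levels are given as CPM, a gene's count scaled to a library total of 1000000. Library totals ranged from 37.6 to 63.7 M counts.

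The 11 microglia markers used here (P2ry12, Tmem119, Csf1r and others) summed to 7066 to 53239.8 CPM, so microglial RNA was present in all 26 libraries. As a check of the labels, Grn stood between 0 and 16.2 CPM in the 7 Grn KO libraries, between 916 and 1869.6 CPM in the 8 Grn HET ones and between 728 and 4156 CPM in the 11 Grn WT ones. The Grn HET and Grn WT ranges overlapped, so the Grn level checks the Grn KO label only. Tmem106b stood between 22.3 and 35.1 CPM in the 4 Tmem106b KO libraries, between 41.5 and 89.0 CPM in the 10 Tmem106b HET ones and between 52.6 and 93.3 CPM in the 12 Tmem106b WT ones. The ranges of HET and WT overlapped, so this level does not check the HET label, and the part of the gene that the KO allele lacks was not given. Before any comparison, 2 libraries stood apart: the 33 genes summed to 19170 CPM in Tmem106b KO Grn WT replicate 2 and, in Tmem106b HET Grn KO replicate 3, to 18080.0 CPM, both Hemi. For Hemi against Entire, Grn KO against Grn WT and Tmem106b KO against Tmem106b WT, counts of the 33 genes that passed are therefore given with and without them. Counts by role, of other gene lists and in other comparisons are not given without both.

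Neurons release transmitter when vesicles, held by synapsins and synaptophysin, fuse with the membrane through the SNARE proteins SNAP-25, syntaxin and synaptobrevin under the control of synaptotagmin and complexin. Excitatory neurons load glutamate into vesicles with VGLUT1 or VGLUT2, while inhibitory neurons make GABA with glutamate decarboxylases and load it with the vesicular GABA transporter. Microglia touch and prune synapses and take up neuronal debris, and preparations of microglia from brain can also carry RNA of other cells. In bulk RNA a larger number of contributing cells and more RNA per cell cannot be told apart.

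Promoters are shown for Slc17a6 and Slc17a7, the 2 glutamate transporter genes of the list, for Gad1, which stands for the inhibitory genes, and for Syn1, the member that held the rarest motifs searched. RefSeq promoters (GRCm38.p6) were found for 23 of the 33 genes, 28 promoters in all, and the 250 bases before the RefSeq start are printed 5′ to 3′ in the direction of the gene. Capitals mark matches on either strand to any of 6 motifs. The cAMP response element was searched as TGACGTCA and by its shorter core TGACG, which every full match also holds. The GC box was searched as GGGCGG. The TATA box was searched as TATAAA. RE1, the element bound by the neuronal repressor REST, was searched by its left part TTCAGCACC. Its right part was searched as GGACAG. None of the other motifs holds another.
Slc17a6, chr7:51621580-51621829, + strand: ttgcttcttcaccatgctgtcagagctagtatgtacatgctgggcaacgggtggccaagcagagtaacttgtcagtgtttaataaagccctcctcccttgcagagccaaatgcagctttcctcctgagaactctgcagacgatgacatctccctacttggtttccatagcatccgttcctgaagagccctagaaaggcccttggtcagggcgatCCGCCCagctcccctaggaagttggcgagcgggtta
Slc17a7, chr7:45163671-45163920, + strand: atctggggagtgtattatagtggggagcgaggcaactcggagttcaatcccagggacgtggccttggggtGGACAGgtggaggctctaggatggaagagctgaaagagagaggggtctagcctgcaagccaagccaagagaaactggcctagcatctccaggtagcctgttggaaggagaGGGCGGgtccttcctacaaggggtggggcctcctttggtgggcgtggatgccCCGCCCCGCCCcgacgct
Gad1, chr2:70561879-70562128, + strand: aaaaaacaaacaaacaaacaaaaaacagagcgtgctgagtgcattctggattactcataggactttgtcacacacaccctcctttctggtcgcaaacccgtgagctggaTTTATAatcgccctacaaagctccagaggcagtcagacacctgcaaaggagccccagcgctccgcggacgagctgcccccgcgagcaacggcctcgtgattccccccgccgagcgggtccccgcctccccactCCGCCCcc
Syn1, chrX:20920919-20921168, - strand: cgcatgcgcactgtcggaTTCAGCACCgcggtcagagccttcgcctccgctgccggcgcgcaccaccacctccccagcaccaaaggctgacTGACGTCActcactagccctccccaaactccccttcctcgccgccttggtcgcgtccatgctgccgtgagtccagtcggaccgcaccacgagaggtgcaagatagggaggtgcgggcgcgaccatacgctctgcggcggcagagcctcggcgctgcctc

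Syn1 alone among the 28 promoters held TGACGTCA, which 1.55% of all 32851 promoters of this length held, and alone held TTCAGCACC, which 0.301% of all held. GGGCGG was in 13 of the 28 promoters (46.4%, against 32.7% of all), TGACG in 6 (21.4%, against 17.8%), GGACAG in 7 (25%, against 18.7%) and TATAAA in 2, those of Eno2 and Gad1 (7.14%, against 12.4%). The median GC content was 58.2% over the 28 promoters and 52.4% over all. These matches describe these windows only. In the annotation of GRCm38 the genes span chr7:51622006-51671119 (Slc17a6), chr7:45163949-45176142 (Slc17a7), chr2:70553072-70602014 (Gad1) and chrX:20860511-20921004 (Syn1), so the printed Slc17a6 and Slc17a7 windows lie before the annotated gene, the Gad1 window lies inside it and the Syn1 window crosses its start. A further Slc17a6 promoter (chr7:51624387-51624636, + strand) was counted but is not printed. It lies inside the annotated gene and holds the TGACG match of Slc17a6.

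The summed level of the 33 genes varied 86.8-fold between libraries, from 221 CPM in Tmem106b HET Grn HET replicate 1 (0.0221% of its counts) to 19170 CPM in Tmem106b KO Grn WT replicate 2 (1.92% of its counts). In Tmem106b WT mice the sum was 346 and 413 CPM in the Entire and 3774 CPM in the Hemi library of Grn WT. It was 642, 328 and 1212 CPM in the Entire and 7372 and 3099 CPM in the Hemi libraries of Grn HET, and 2252, 1449.6 and 2125 CPM in the Entire and 1698 CPM in the Hemi library of Grn KO. Tmem106b WT Grn KO was the one genotype of the 6 with both dissections in which the Hemi library lay within the range of the Entire libraries.

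In Tmem106b HET mice the sum was 283 and 282 CPM in the Entire and 1925 and 3001 CPM in the Hemi libraries of Grn WT. It was 221, 605 and 372 CPM in the Entire libraries of Grn HET, and 1507 and 5859 CPM in the Entire and 18080.0 CPM in the Hemi library of Grn KO. In Tmem106b KO Grn WT it was 694, 2788 and 845 CPM in the Entire and 19170.5 CPM in the Hemi library. Above 1000 CPM lay 15 libraries: all 8 Hemi libraries and 7 Entire ones, of which 5 were Grn KO.

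**Figure D1:**
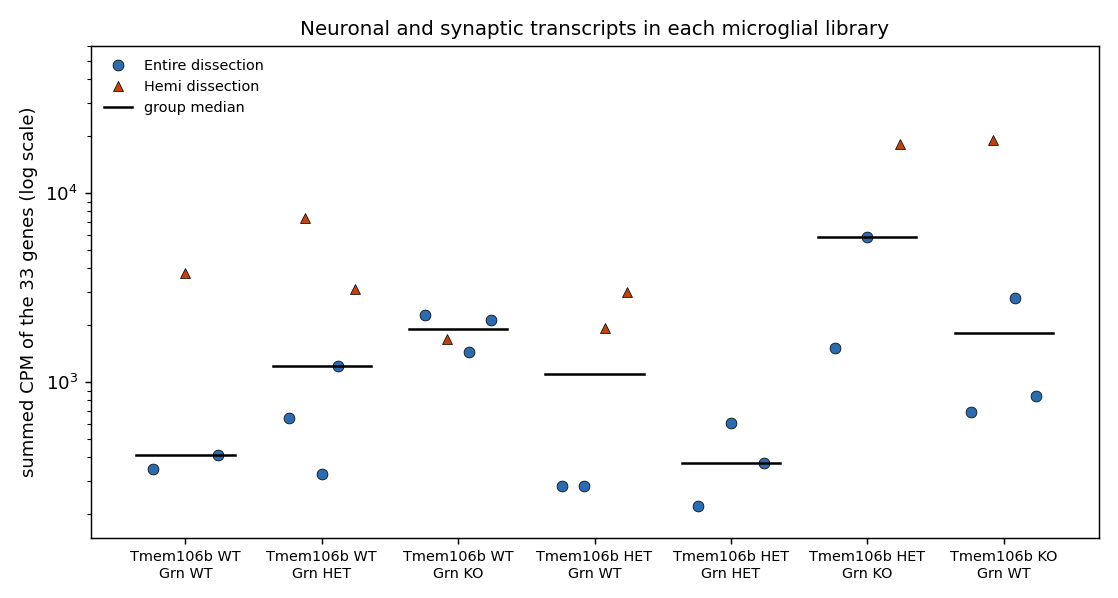
Summed CPM of the 33 neuronal and synaptic genes (log axis) in each of the 26 libraries by genotype, with Entire (circles) and Hemi (triangles) dissection and the group median (line). Hemi libraries sit between 1698 and 19170 CPM, and Entire libraries between 221 and 5859 CPM.

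Most of the 33 genes were high in the same libraries. Of the 33, 22 were highest in Tmem106b KO Grn WT replicate 2, 9 in Tmem106b HET Grn KO replicate 3, and Slc17a7 and Nrgn in Tmem106b HET Grn KO replicate 2. Among the 15 libraries above 1000 CPM, each gene's share of the sum was taken as a measure of the mix. Syp, the vesicle protein synaptophysin, varied least (1.30-fold, 5.24% to 6.82% of the sum), followed by Eno2, the neuronal enolase (1.38-fold). Slc17a7 (60.2-fold), Nrgn (24.8-fold) and Gad1 (11.3-fold) varied most. Per length, the highest medians over libraries were those of Stmn3 (83.3 RPKM) and Snap25 (81.0 RPKM), and the lowest was that of Slc32a1 (0.149 RPKM). Slc32a1 had 0 counts in 3 libraries and Nefh in 1, and 3 counts correspond to 0.0471 to 0.0799 CPM over the 26 libraries.

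**Figure D2:**
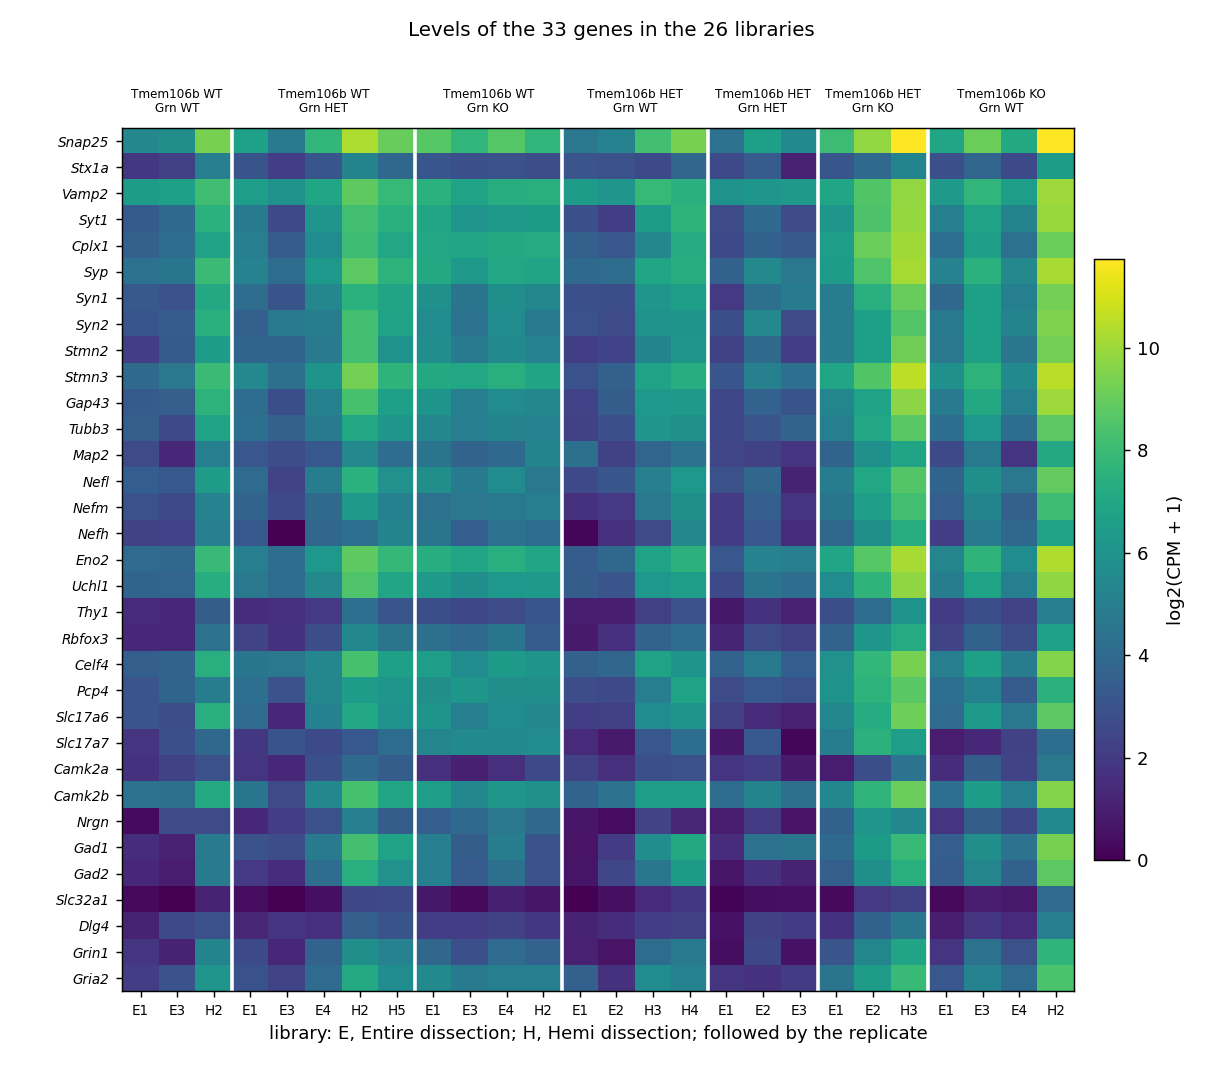
Levels of the 33 genes (rows, ordered by role) in the 26 libraries (columns, grouped by genotype) as log2(CPM + 1). Most rows brighten together in the Hemi libraries and in Grn KO, while Slc17a7 and Camk2a follow other patterns.

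Hemi libraries had more neuronal RNA than Entire libraries. In a fit over all 26 libraries with genotype and sex (edgeR, quasi-likelihood F-test, adjusted over 21371 genes), 32 of the 33 genes were higher in Hemi and 0 were lower at an adjusted p under 0.05. Over all genes tested, 11.7% were higher and 9.03% lower. The median log2 fold change was 2.69 over the 33 genes and -0.09 over all genes. Without the 2 libraries of highest sum 25 of the 33 were higher, beside 4.61% of all genes. With the log2 summed CPM of a separate list of neuronal cytoskeleton and channel genes as a further covariate, 0 passed and 0% of all genes were higher or lower. That list is itself neuronal RNA of the same libraries, at 22861 and 22783 CPM in the 2 libraries of highest sum. A loss of calls was therefore built into this fit and into the later fits with that covariate, and they decide nothing about the 33 genes. At an unadjusted p under 0.05 there were 0 of the 33, beside 1.57% of all genes, and the median over the 33 genes was -0.02. By role, all 8 release and vesicle genes, all 8 cytoskeleton and growth genes, all 6 general neuron genes, all 6 postsynaptic genes and all 3 inhibitory genes passed, and so did Slc17a6 of the 2 glutamate transporters.

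The gene with the smallest p was Thy1, a surface glycoprotein of neurons and T cells. Thy1 was at 0.664, 2.51 and 16.5 CPM in Entire and 3.61, 8.88 and 61.4 CPM in Hemi libraries (lowest, median and highest), a log2 fold change of 2.13 ± 0.28 (SE, edgeR adjusted p = 0.000458). The ranges overlapped, and the highest Entire value was that of Tmem106b HET Grn KO replicate 2. Uchl1, a deubiquitinase abundant in neurons, was at 5.27, 27.5 and 196 CPM in Entire and 75.5, 139 and 881 CPM in Hemi libraries, a log2 fold change of 2.87 ± 0.38 (SE, edgeR adjusted p = 0.000458). Gap43, a protein of growing axons, was at 4.19, 22.9 and 133 CPM in Entire and 42.5, 143 and 1049.9 CPM in Hemi libraries, a log2 fold change of 3.18 ± 0.45 (SE, edgeR adjusted p = 0.000458). Celf4, a neuronal RNA-binding protein, was at 10.5, 28.1 and 219.6 CPM in Entire and 65.9, 138 and 741 CPM in Hemi libraries, a log2 fold change of 2.67 ± 0.38 (SE, edgeR adjusted p = 0.000458). In each of the 4 the Hemi median lay above the Entire median and the ranges overlapped.

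Within genotypes the Hemi libraries stood above the Entire libraries for nearly all of the genes, with 1 exception. Every Hemi library exceeded every Entire library for 33 of 33 genes in Tmem106b WT Grn WT, Tmem106b WT Grn HET and Tmem106b KO Grn WT, where it did so for 45.9%, 23.1% and 42.5% of all genes tested. It did so for 31 genes in Tmem106b HET Grn WT (not Map2 and Stx1a), against 21.2% of all genes, and for 31 in Tmem106b HET Grn KO (not Slc17a7 and Nrgn), against 45.1%. In Tmem106b WT Grn KO it did so for 6 of the 33 (Thy1, Nefm, Map2, Camk2a, Slc17a7 and Cplx1), against 40.7% of all genes. The mean summed level in Hemi was 9.95 times that in Entire in Tmem106b WT Grn WT, 7.2 in Tmem106b WT Grn HET, 8.71 in Tmem106b HET Grn WT, 4.91 in Tmem106b HET Grn KO and 13.3 in Tmem106b KO Grn WT, against 0.874 in Tmem106b WT Grn KO. These within-genotype counts rest on 1 or 2 Hemi libraries each and were not tested. In Tmem106b HET Grn WT and Tmem106b HET Grn KO all Entire libraries were F and all Hemi libraries M. In Tmem106b WT Grn WT the Entire libraries were M and the Hemi library F. Within these genotypes dissection and sex cannot be told apart.

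In Tmem106b HET mice, Grn KO libraries held more neuronal RNA than Grn WT libraries. With sex and dissection as covariates, 26 of the 33 genes were higher in Grn KO and 0 were lower (edgeR, adjusted p under 0.05), with 8.42% of all genes higher and 6.05% lower. The median log2 fold change was 3.42 over the 33 genes and -0.02 over all genes. In both groups the Entire libraries were F and the Hemi libraries M, so within them sex and dissection cannot be told apart. The fit of the Entire libraries alone called 20 of the 33 higher, beside 3.56% of all genes, and the fit without the 2 libraries of highest sum called 22, beside 4.02%. In the fits that left out the dissection, 0 of the 33 passed, while 0.763% of all genes were called higher with sex alone and 0.721% with no covariate. At an unadjusted p under 0.05, 20 of the 33 were higher with sex alone, beside 12.1% of all genes, and 18 with no covariate, beside 11.4%. With the summed cytoskeleton and channel list as a covariate, 0 passed as well, beside 0.0749% of all genes higher and 0% lower. The median over the 33 genes was then 0.37, and 5 were higher at an unadjusted p under 0.05, beside 4.81% of all genes.

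Thy1 again had the smallest p, at 0.957 and 1.01 CPM in the Entire and 3.61 and 6.43 CPM in the Hemi libraries of Grn WT. It was at 6.09 and 16.5 CPM in the Entire and 61.4 CPM in the Hemi library of Grn KO, a log2 fold change of 3.43 ± 0.48 (SE, edgeR adjusted p = 0.0012). The Entire libraries of the 2 genotypes did not overlap, nor did the Hemi libraries. Cplx1, which encodes complexin 1, was at 11 and 8.03 CPM in the Entire and 42.2 and 150.5 CPM in the Hemi libraries of Grn WT. In Grn KO it was at 94.7 and 536 CPM in the Entire and 1084 CPM in the Hemi library, a log2 fold change of 4.34 ± 0.77 (SE, edgeR adjusted p = 0.00272). Stmn3, a microtubule regulator of the stathmin family, was at 6.88 and 11.3 CPM in the Entire and 109 and 157 CPM in the Hemi libraries of Grn WT. In Grn KO it was at 119 and 371 CPM in the Entire and 1505 CPM in the Hemi library, a log2 fold change of 4.05 ± 0.74 (SE, edgeR adjusted p = 0.00294). Uchl1 was at 9.94 and 7.55 CPM in the Entire and 75.5 and 93.1 CPM in the Hemi libraries of Grn WT. In Grn KO it was at 50.5 and 196 CPM in the Entire and 870.3 CPM in the Hemi library, a log2 fold change of 3.51 ± 0.65 (SE, edgeR adjusted p = 0.00329). For all 4 genes the 2 dissections kept the genotypes apart, while pooling the dissections made them overlap.

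Counting over Entire libraries only, every Grn KO library (n = 2) exceeded every Grn WT library (n = 2) for 30 of the 33 genes, against 27% of all genes tested. Over all libraries this held for Slc17a7 and Nrgn, 2 of the 33, against 7.69% of all genes. By role, 7 of 8 release and vesicle genes passed the edgeR test (all but Stx1a, syntaxin 1A), as did 6 of 8 cytoskeleton and growth genes (all but Map2 and Nefh), 6 of 6 general neuron genes, 5 of 6 postsynaptic genes (all but Camk2a) and both glutamate transporters. Of the 3 inhibitory genes 0 passed: the log2 fold change was 3.21 ± 1.17 (SE, edgeR adjusted p = 0.0725) for Gad1, 2.86 ± 1.06 (SE, edgeR adjusted p = 0.0762) for Gad2 and 2.45 ± 1.39 (SE, edgeR adjusted p = 0.248) for Slc32a1.

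In Tmem106b WT mice, 0 of the 33 genes passed in Grn KO against Grn WT (edgeR), where 0.426% of all genes were higher and 0.15% lower. With the cytoskeleton and channel list as a covariate 0 passed too, and 0.412% of all genes were higher and 0.0281% lower. At an unadjusted p under 0.05, 2 of the 33 were then higher, beside 5.55% of all genes. Without the 2 libraries of highest sum, which are not in these groups but share the fit, 0 passed, beside 1.19% of all genes higher. The median log2 fold change was 1.94 over the 33 genes and 0.10 over all genes. Of the 33 estimates 32 were above 0, and 21 were higher at an unadjusted p under 0.05, beside 7.78% of all genes. In this fit all genotypes share the same dissection term. The Hemi to Entire ratio of mean sums was 9.95 in Tmem106b WT Grn WT and 0.874 in Tmem106b WT Grn KO, a difference that a shared term cannot follow. Without any such term, the mean sums were 1881 CPM in Grn KO and 1511 CPM in Grn WT. The ratio of means was 1.25 and that of medians 4.63. DESeq2 called 14 of the 33 higher, beside 4.23% of all genes, and limma-voom 0, beside 0.674%. Without Tmem106b WT Grn KO replicate 2, the Hemi library of the group, edgeR called 10 of the 33 higher, beside 1.16% of all genes. The smallest adjusted p was that of Pcp4, a calmodulin regulator of neurons. Pcp4 was at 7.61 and 12.8 CPM in the Entire and 30.8 CPM in the Hemi library of Grn WT, and at 54.3, 73.7 and 55 CPM in the Entire and 57.1 CPM in the Hemi library of Grn KO. All 4 Grn KO values lay above the 3 Grn WT values, with a log2 fold change of 2.64 ± 0.71 (SE, edgeR adjusted p = 0.10).

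Over all libraries, the Grn KO values exceeded the Grn WT values without overlap for 4 of the 33 genes (Slc17a7, Cplx1, Nrgn and Pcp4), against 7.34% of all genes tested. Over the Entire libraries alone (3 Grn KO and 2 Grn WT) they did so for 30 of the 33, against 23.4% of all genes. Snap25, the SNARE protein of the presynaptic membrane, shows the pattern: it was at 42.3 and 55.3 CPM in the Entire and 639 CPM in the Hemi library of Grn WT. In Grn KO it was at 405, 211 and 392 CPM in the Entire and 211 CPM in the Hemi library. Its Entire libraries were thus apart by genotype, and the Grn WT Hemi library was the highest of the 7, with a log2 fold change of 2.22 ± 0.84 (SE, edgeR adjusted p = 0.277). Stmn2, the neuronal stathmin, was at 3.55 and 8.89 CPM in Entire and 87.8 CPM in Hemi of Grn WT, and at 52.4, 26.2 and 47.3 CPM in Entire and 36.4 CPM in Hemi of Grn KO. Rbfox3, the neuronal nuclear antigen NeuN, was at 1.47 and 1.57 CPM in Entire and 20.1 CPM in Hemi of Grn WT, and at 19, 15 and 22.8 CPM in Entire and 9.55 CPM in Hemi of Grn KO. For both, the Entire libraries of the 2 genotypes were apart and the Hemi library of Grn WT lay above that of Grn KO. The log2 fold change was 2.23 ± 0.79 (SE, edgeR adjusted p = 0.244) for Stmn2 and 2.97 ± 0.81 (SE, edgeR adjusted p = 0.106) for Rbfox3.

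The difference between the Grn KO effects in Tmem106b HET and Tmem106b WT mice was tested as an interaction, and 0 of the 33 genes passed (edgeR, with 0% of all genes called; DESeq2 and limma-voom also 0). The median difference was 1.48 on the log2 scale, larger in Tmem106b HET, and 3 of the 33 were above 0 at an unadjusted p under 0.05, beside 1.89% of all genes. The larger count of genes called in Tmem106b HET is therefore not shown to differ from that in Tmem106b WT. The 2 Grn KO groups compared directly gave 0 of 33 passed (edgeR, DESeq2 and limma-voom), a median log2 fold change of 0.91 for Tmem106b HET over Tmem106b WT, and 2 genes higher at an unadjusted p under 0.05, beside 1.34% of all genes.

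**Figure D3:**
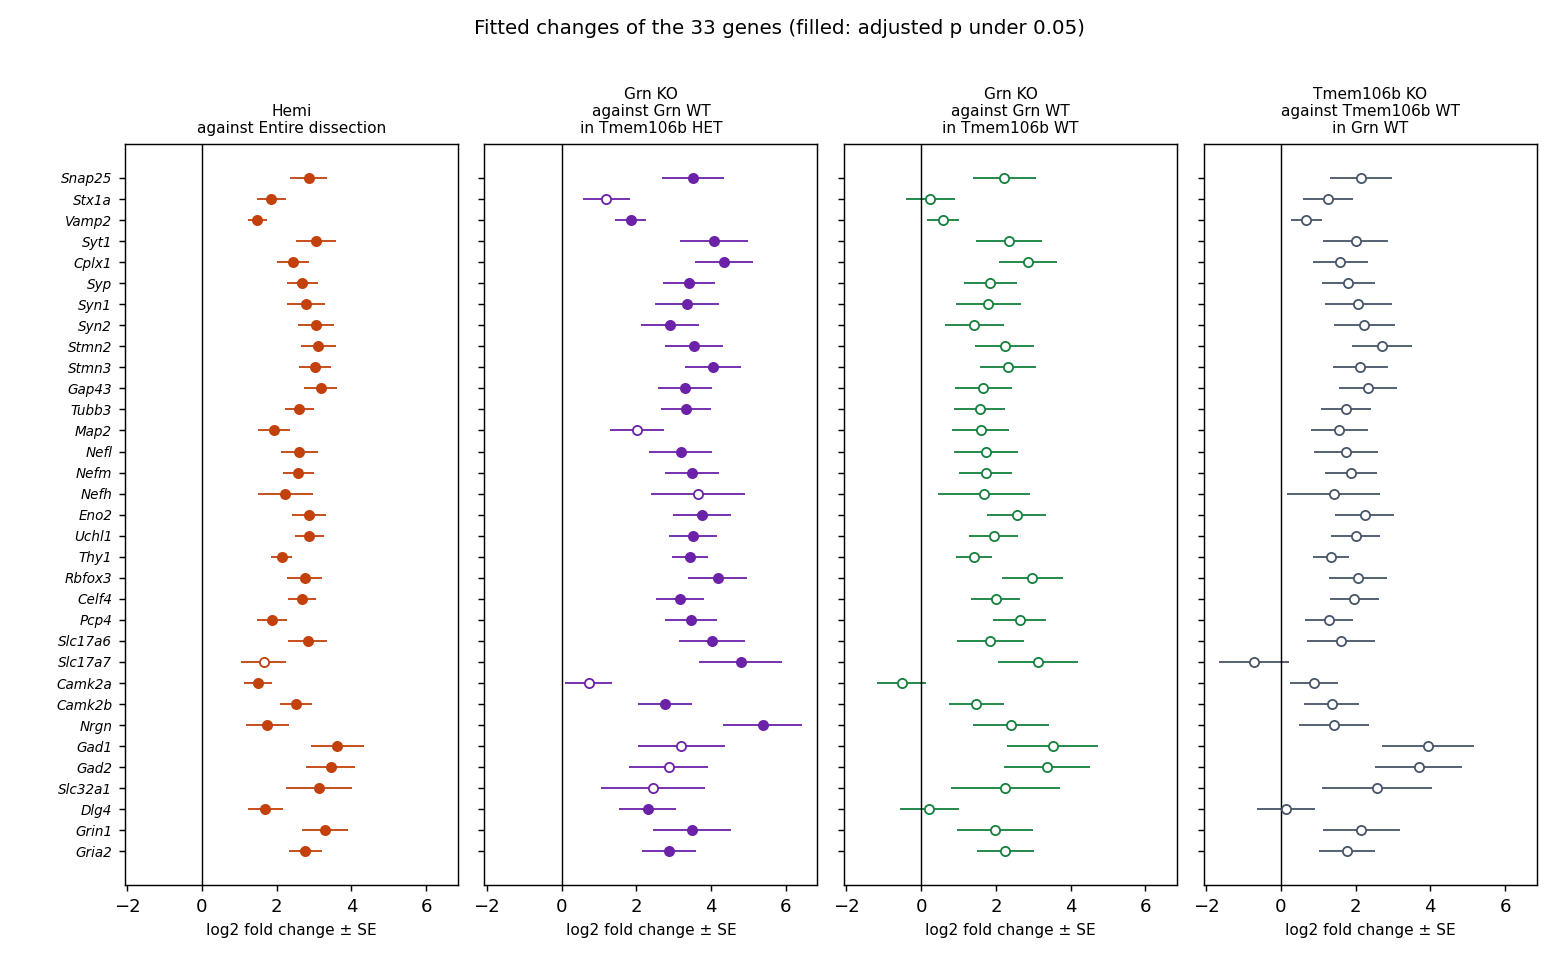
Fitted log2 fold change ± SE of each of the 33 genes (rows) in 4 comparisons (panels), with filled points where the adjusted p was under 0.05 (edgeR). Filled points number 32 for dissection, 26 for Grn KO in Tmem106b HET, and 0 for Grn KO in Tmem106b WT and for Tmem106b KO.

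Tmem106b KO against Tmem106b WT, both with Grn WT, gave 0 called genes among the 33 (edgeR, with 0% of all genes higher and 0.00468% lower), with a median log2 fold change of 1.80. At an unadjusted p under 0.05, 19 of the 33 were higher, beside 6.19% of all genes. DESeq2 called 8 higher, beside 2.13% of all genes, and limma-voom 0, beside 0%. Without the 2 libraries of highest sum edgeR called 0, beside 0% of all genes, and 11 of the 33 were higher at an unadjusted p under 0.05, beside 3.61%. Stmn2 had the smallest p: it was at 24, 101 and 23.5 CPM in the Entire and 630.2 CPM in the Hemi library of Tmem106b KO, a log2 fold change of 2.71 ± 0.81 (SE, edgeR adjusted p = 0.434) over the Tmem106b WT Grn WT values above. All 3 Entire values of Tmem106b KO lay above the 2 Entire values of Tmem106b WT, but below its Hemi value in 2 of 3 libraries. Without overlap over Entire libraries were 22 of the 33 genes, against 17.2% of all genes, and over all libraries 0, against 3.5%.

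Loss of 1 copy of Grn or Tmem106b gave 0 called genes among the 33 in edgeR or limma-voom, with 0% of all genes called in edgeR. Grn itself was thus not called in Grn HET against Grn WT. Its mean was 1437 against 3191 CPM in Tmem106b WT and 1715 against 3027 CPM in Tmem106b HET. These counts of 0 therefore do not show that the 33 genes were unchanged. For Grn HET against Grn WT the median log2 fold change was 0.69 in Tmem106b WT and 0.36 in Tmem106b HET, and DESeq2 called 0 in both. At an unadjusted p under 0.05, 2 of the 33 were higher in the first, beside 2.87% of all genes, and 0 changed either way in the second, beside 5.54%. For Tmem106b HET against Tmem106b WT the median was -0.48 in Grn WT, where 1 of the 33 was lower at an unadjusted p under 0.05, beside 1.53% of all genes, and DESeq2 called 0. It was -0.82 in Grn HET, where 5 of the 33 were lower at that p, beside 5.02% of all genes, and DESeq2 called 1 lower, beside 2.26%. The Tmem106b WT Grn WT libraries enter several of these comparisons, which are therefore not independent.

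The 2 glutamate transporter genes are given side by side, and no test of a difference between them was made. Slc17a6, which encodes VGLUT2, the glutamate transporter of thalamic, habenular and brainstem neurons, was at 1.09, 16 and 152 CPM in Entire and 42.4, 97.1 and 573 CPM in Hemi libraries (lowest, median and highest). It passed in the dissection comparison with a log2 fold change of 2.83 ± 0.53 (SE, edgeR adjusted p = 0.00153). For Grn KO its log2 fold change was 4.02 ± 0.89 (SE, edgeR adjusted p = 0.00697) in Tmem106b HET, which passed, and 1.85 ± 0.90 (SE, edgeR adjusted p = 0.412) in Tmem106b WT, which did not. Slc17a7, which encodes VGLUT1, used mainly by cortical, hippocampal and cerebellar neurons, was at 40.0, 47.5 and 47.7 CPM in the Entire and 49.4 CPM in the Hemi library of Tmem106b WT Grn KO. In Tmem106b HET Grn KO it was at 29.3 and 184 CPM in the Entire and 93.6 CPM in the Hemi library. In the 19 libraries with at least 1 intact Grn allele Slc17a7 did not exceed 18 CPM, so all 7 Grn KO libraries lay above all others. Its log2 fold change was 4.79 ± 1.10 (SE, edgeR adjusted p = 0.0085) for Grn KO in Tmem106b HET, which passed, and 3.12 ± 1.07 (SE, edgeR adjusted p = 0.221) in Tmem106b WT, which did not. It was the one gene that missed the threshold in the dissection comparison, at 1.65 ± 0.61 (SE, edgeR adjusted p = 0.060). In Tmem106b KO Grn WT replicate 2 it was at 18 CPM beside 436 CPM of Slc17a6.

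Slc17a7 counts made up a varying share of the 2 transporters' counts. The share was 37.9% (95% Wilson interval 36.7% to 39.0%), 53.8% (52.4% to 55.2%), 59.7% (58.1% to 61.3%) and 48.4% (47.2% to 49.6%) in Tmem106b WT Grn KO replicates 1 to 4. It was 40.0% (38.5% to 41.5%) and 54.9% (54.2% to 55.6%) in the Entire and 14.0% (13.7% to 14.4%) in the Hemi library of Tmem106b HET Grn KO. In Tmem106b KO Grn WT it was 5.31% (3.91% to 7.17%), 1.93% (1.5% to 2.46%) and 13.9% (12.1% to 16%) in the Entire and 3.96% (3.68% to 4.26%) in the Hemi library. The shares of Grn KO in Tmem106b WT thus lay above all 4 of Tmem106b KO Grn WT beyond their counting intervals. In the other 15 libraries the share ran from 6.13% to 83.1%, on as few as 67 counts of both genes. Among them were the Grn WT libraries of Tmem106b WT. Their shares were 25.1% (21.2% to 29.4%) and 51.8% (47.2% to 56.3%) in Entire and 8.11% (7.52% to 8.74%) in Hemi. The 51.8% lay within the range of Grn KO in Tmem106b WT. The 83.1%, of a Grn HET library, lay above all Grn KO shares. The intervals cover counting error only.

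Gad1, a glutamate decarboxylase of GABA neurons, was at 0.55, 12.6 and 83.3 CPM in Entire and 6.93, 124 and 632 CPM in Hemi libraries, a log2 fold change of 3.62 ± 0.70 (SE, edgeR adjusted p = 0.00196). Gad2, the second decarboxylase, was at 0.59, 6.92 and 56.4 CPM in Entire and 6.58, 71.4 and 432 CPM in Hemi libraries, a log2 fold change of 3.44 ± 0.66 (SE, edgeR adjusted p = 0.00182). Slc32a1, the vesicular GABA transporter, was at 0, 0.344 and 2.88 CPM in Entire and 0.602, 3.4 and 16.1 CPM in Hemi libraries, a log2 fold change of 3.13 ± 0.87 (SE, edgeR adjusted p = 0.0156). All 3 were higher in Hemi, and the lowest Hemi value of each came from Tmem106b WT Grn KO replicate 2. By genotype, Gad1 was at 31.7, 9.91 and 29 CPM in the Entire and 6.93 CPM in the Hemi library of Tmem106b WT Grn KO, and at 1.94 and 1.09 CPM in the Entire and 27.7 CPM in the Hemi library of Tmem106b WT Grn WT. The log2 fold change there was 3.52 ± 1.21 (SE, edgeR adjusted p = 0.226), and the ranges overlapped through the Hemi libraries.

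**Figure D4:**
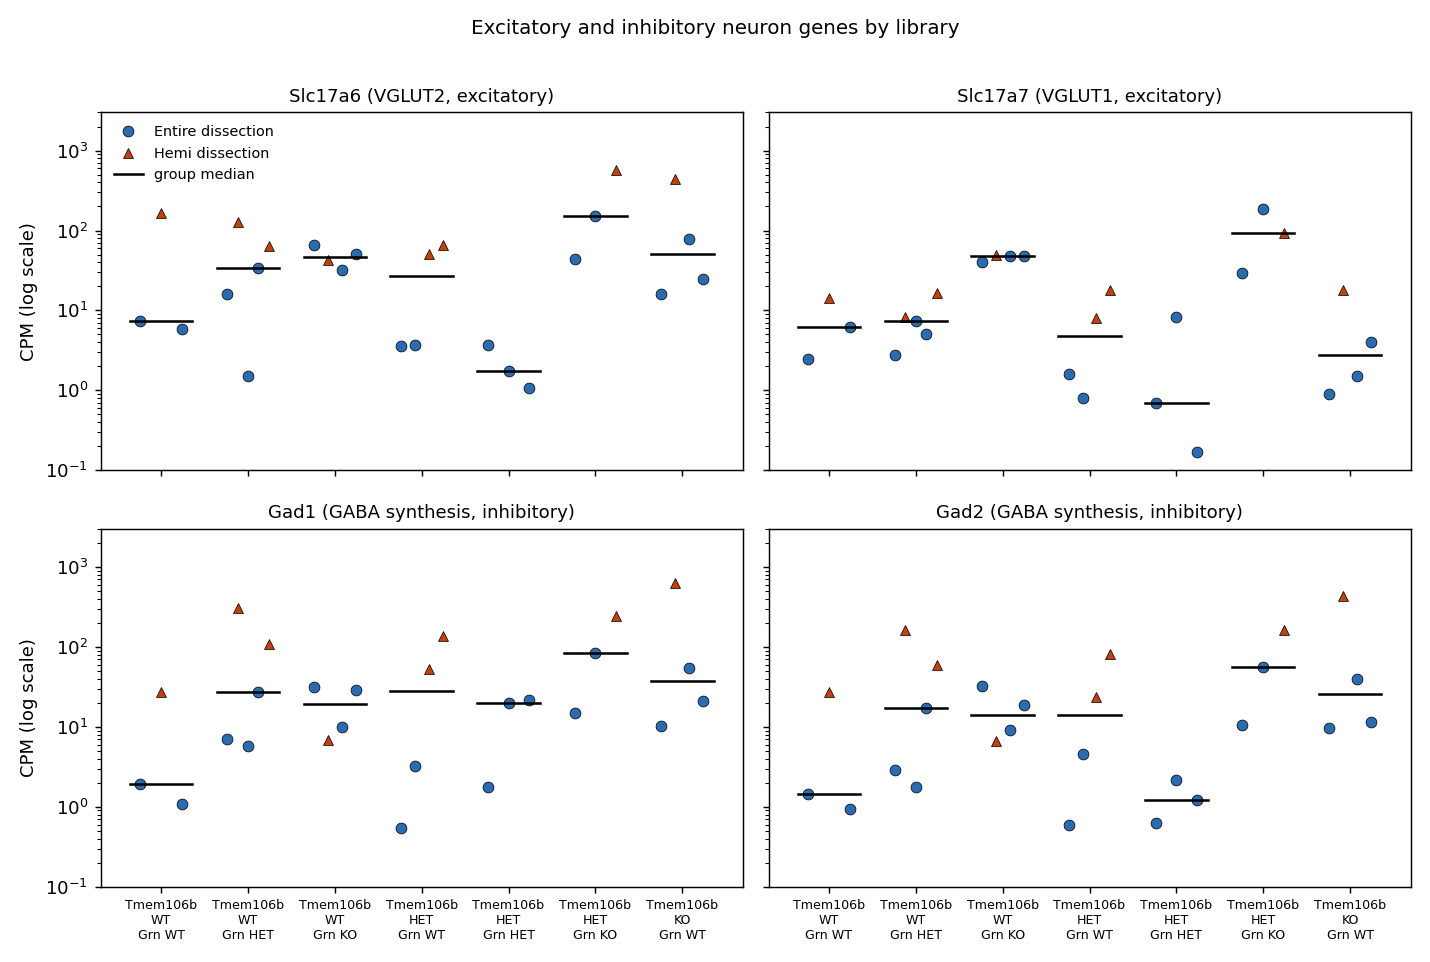
Slc17a6, Slc17a7, Gad1 and Gad2 in CPM (log axis) in each library by genotype, with Entire (circles), Hemi (triangles) and group medians (lines). All 7 Grn KO libraries lie above all others for Slc17a7, while Hemi libraries lead for Gad1 and Gad2 in each genotype with both dissections except Tmem106b WT Grn KO.

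Per length, the RPKM of Slc17a6 and Slc17a7 together was divided by that of Gad1, Gad2 and Slc32a1. The ratio ranged from 1.98 to 9.08 in the 7 Grn KO libraries (median 3.29), from 0.464 to 8.46 in the 11 Grn WT libraries (median 1.02) and from 0.0602 to 2.14 in the 8 Grn HET libraries (median 0.841). Its median was 0.724 in Hemi and 2.09 in Entire libraries. The Grn WT pool held the 4 Tmem106b KO libraries, at 0.493 to 1.03. Within Tmem106b WT the ratio was 2.22 to 9.08 in Grn KO (median 4.36) and 3.38 to 8.46 in Grn WT (median 3.88). Within Tmem106b HET it was 1.98 to 3.79 in Grn KO (median 3.29) and 0.464 to 6.10 in Grn WT (median 0.784). The ranges of Grn KO and Grn WT overlapped, pooled and within each Tmem106b genotype, and no test was made on this ratio.

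Camk2a and Nrgn are genes of forebrain excitatory neurons that act at the postsynapse. Camk2a was at 2.06, 1.04 and 2.07 CPM in the Entire and 5.2 CPM in the Hemi library of Tmem106b WT Grn KO, and at 2.24 and 3.86 CPM in the Entire and 6.43 CPM in the Hemi library of Tmem106b WT Grn WT. It had the one negative estimate among the 33 there, a log2 fold change of -0.52 ± 0.65 (SE, edgeR adjusted p = 0.813). Per length, Camk2a stood at 1.58% to 25.7% of its paralog Camk2b in the 26 libraries, with a median of 2.22% in Grn KO, 7.88% in Grn WT and 7.74% in Grn HET. Reads shared between the 2 paralogs may be split in ways that the sources used here do not give. Nrgn, neurogranin, was at 0.611 and 0.296 CPM in the Entire and 4.31 and 1.41 CPM in the Hemi libraries of Tmem106b HET Grn WT. In Tmem106b HET Grn KO it was at 11.5 and 67.8 CPM in the Entire and 43 CPM in the Hemi library, without overlap, and its log2 fold change of 5.38 ± 1.05 (SE, edgeR adjusted p = 0.00416) was the largest estimate of the 33 in this comparison.

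Other neuronal genes, listed by function apart from the 33, were called in the same 2 comparisons. Of 36 further release genes, 31 were higher in Hemi and 28 in Tmem106b HET Grn KO (edgeR), with medians of 2.44 and 3.09 on the log2 scale. Over all genes 11.7% and 8.42% were higher. Synpr, a vesicle protein of the synaptophysin family, was at 64.0 to 293 CPM in Tmem106b HET Grn KO and 0.643 to 2.59 CPM in its Grn WT, a log2 difference of 6.99 ± 1.04 (SE, edgeR adjusted p = 0.00161). It was at 95.2 to 124 CPM in Tmem106b WT Grn KO and 0.213 to 4.48 CPM in Tmem106b WT Grn WT, a log2 difference of 7.05 ± 1.19 (SE, edgeR adjusted p = 0.0097). Synpr and Syngr1 were the 2 of the 36 that passed for Grn KO in Tmem106b WT, beside 0.426% of all genes higher. Syngr1, a synaptogyrin found outside neurons too, was at 678 to 925 CPM there against 336 to 445 CPM, with an estimate of 1.12 ± 0.21 (SE, edgeR adjusted p = 0.0136), and was not called in Hemi, at -0.35 ± 0.13 (SE, edgeR adjusted p = 0.0521).

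Of 41 cytoskeleton, secretory and channel genes, 36 were higher in Hemi and 23 in Tmem106b HET Grn KO, and Map1b, a microtubule protein, had the smallest p in the latter with a log2 fold change of 4.28 ± 0.68 (SE, edgeR adjusted p = 0.00185). Of 25 postsynaptic receptor and scaffold genes, 19 were higher in Hemi and 8 in Tmem106b HET Grn KO, with a log2 fold change in the latter of 3.47 ± 0.69 (SE, edgeR adjusted p = 0.00444) for Gria1, an AMPA receptor subunit. Nlgn3, a synaptic adhesion protein, had a log2 fold change of 2.69 ± 0.44 (SE, edgeR adjusted p = 0.000629) in Hemi. Of 12 tested excitatory genes, 5 and 6 passed, and of 18 tested inhibitory genes, 8 and 5 passed. For each of these lists the shares of all genes higher were 11.7% in Hemi and 8.42% in Tmem106b HET Grn KO. Dlx1, a transcription factor of forebrain GABA neurons, passed in Hemi, at 0.820 to 16.4 CPM in Hemi and 0 to 0.410 CPM in Entire libraries. Neurod1, a transcription factor of excitatory neurons, passed for Grn KO in Tmem106b HET, at 7.90 to 32.1 CPM against 0 to 0.24 CPM in Grn WT. Both had libraries at 0, so no fold is given. In Tmem106b WT Grn KO, 0 genes of these last 4 lists passed in edgeR, where 18 of 41, 5 of 25, 4 of 12 and 6 of 18 had an unadjusted p under 0.05, beside 12.4% of all genes.

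Genes of the medial habenula, a small epithalamic nucleus of cholinergic and glutamatergic neurons, were higher in Grn KO. Like the other lists, this one was chosen with earlier results of these data known, so its counts describe these libraries and are not independent support. The 12 genes on that list summed to 376 to 1875 CPM in Tmem106b HET Grn KO and 451 to 574 CPM in Tmem106b WT Grn KO. In Tmem106b WT and HET mice with Grn WT they summed to at most 32.9 CPM, in Grn HET mice to at most 164 CPM, and in Tmem106b KO Grn WT to at most 136 CPM. In edgeR 11 of 12 were higher for Grn KO in Tmem106b HET, 4 in Tmem106b WT and 2 in Hemi. Over all genes 8.42%, 0.426% and 11.7% were higher, so the count in Hemi was near the share of all genes. Necab2, a calcium-binding protein, passed in all 3 with a log2 fold change of 6.05 ± 0.81 (SE, edgeR adjusted p = 0.000949) for Grn KO in Tmem106b HET, 4.98 ± 0.85 (SE, edgeR adjusted p = 0.010) in Tmem106b WT and 1.87 ± 0.42 (SE, edgeR adjusted p = 0.00524) for Hemi. The habenula sum was thus higher in each of the 7 Grn KO libraries than in Tmem106b KO Grn WT replicate 2 (136 CPM), the library of highest neuronal sum. Slc5a7, the choline transporter of cholinergic neurons, was at 0 in every library of Tmem106b WT Grn WT and Tmem106b HET Grn WT, and at 9.88 to 74.4 CPM in Tmem106b HET Grn KO.

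Microglia markers moved the opposite way. The 11 markers summed to 18644 to 24138 CPM in Tmem106b WT Grn KO against 39649.6 to 48279.6 CPM in its Grn WT, and to 7066 to 22416 CPM in Tmem106b HET Grn KO against 33266 to 53239.8 CPM in its Grn WT. They were 8451 CPM in Tmem106b KO Grn WT replicate 2. In edgeR 10 of 11 were lower for Grn KO in Tmem106b HET, 2 for Grn KO in Tmem106b WT and 10 in Hemi. Over all genes 6.05%, 0.15% and 9.03% were lower. Tmem119, a surface protein of homeostatic microglia, was lower in all 3, with a log2 fold change of -2.11 ± 0.37 (SE, edgeR adjusted p = 0.00272), -1.54 ± 0.34 (SE, edgeR adjusted p = 0.0443) and -0.93 ± 0.22 (SE, edgeR adjusted p = 0.00699). CPM values share 1 total per library, so a gain of some genes lowers the CPM of others, and the part of this in the result was not tested.

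**Figure D5:**
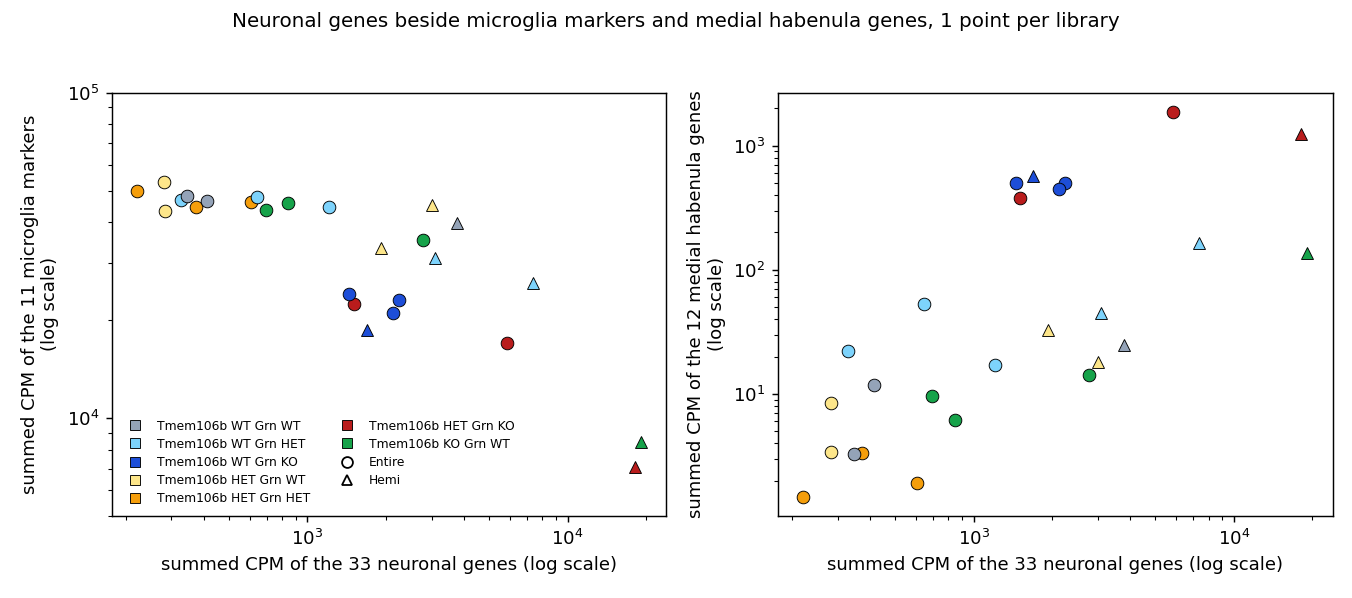
Summed CPM of the 33 neuronal genes (x axis) against that of 11 microglia markers (left) and 12 medial habenula genes (right), 1 point per library, all on log axes, with color for genotype and shape for dissection. The 2 libraries of highest neuronal sum have the lowest microglia sums, 7066 and 8451 CPM, and the Grn KO libraries have the highest habenula sums.

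Few markers of other brain cells passed in these comparisons, where 11.7% of all genes were higher in Hemi and 6.05% lower in Tmem106b HET Grn KO. The summed level of 10 astrocyte markers was 362 to 708 CPM in Entire and 520 to 1481 CPM in Hemi libraries, with 1 gene, Aldoc, higher in Hemi. For 10 oligodendrocyte markers it was 556 to 7868 CPM in Entire and 695 to 26664 CPM in Hemi libraries, and for 8 endothelial markers 43.9 to 238 CPM and 12.6 to 834 CPM, with 0 genes of either list passing between dissections in edgeR (0 of 10 and 0 of 8 had an unadjusted p under 0.05). Choroid plexus and ependymal markers reached 26678 CPM in Tmem106b WT Grn HET replicate 5. In Tmem106b HET Grn KO, 1 astrocyte gene (Slc1a3) and 1 endothelial gene (Pecam1) were lower. There 0 of 10 oligodendrocyte and 0 of 8 endothelial estimates were above 0, with median log2 fold changes of -2.31 and -3.15. In Tmem106b WT Grn KO 0 of 10 and 6 of 8 were above 0, with medians of -0.59 and 0.96. Of 7 oligodendrocyte precursor markers, Gpr17 was higher in Hemi and 0 passed for Grn KO in either Tmem106b genotype. In Hemi all 7 precursor estimates were above 0, with a median log2 fold change of 1.77. Of them 4 were higher at an unadjusted p under 0.05, beside 3587 of all 21371 genes. The precursor sum was 46.4 to 335 CPM in Entire and 81.7 to 1340 CPM in Hemi libraries. Of 7 mural, 9 choroid plexus and ependymal and 5 erythrocyte markers, 0 passed in these 3 comparisons (edgeR), where at most 2 of a list had an unadjusted p under 0.05. The part of these levels in the neuronal results was not tested.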

How the data were processed

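RNA of microglia was extracted from cell pellets, copied from its poly(A) ends with a low-input SMART-Seq kit and made into libraries with Nextera XT, per the labels' protocols. Reads were aligned with GSNAP to GRCm38, per the submitters' processing notes. The counting tool, its annotation and its use of strand are not given in the sources used, so overlapping genes and near-identical copies may share reads. The files deposited for each library hold whole-number read counts per gene and RPKM, per the file headers. RPKM served only to compare genes by length.

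CPM was computed as a gene's count scaled to a library total of 1000000. A count of 0 allows up to 3 counts, and this floor and the Wilson intervals cover counting error only, since no molecular identifiers were used. Differences were tested in R 4.3.3 with edgeR 4.0.16 (filterByExpr, TMM, robust quasi-likelihood F-test, two-sided, Benjamini-Hochberg adjustment over 21371 genes) in 1 fit of 26 libraries with the 7 genotypes, sex and dissection. The fit was tested on simulated data first. Alternatives were DESeq2 1.42.0, limma-voom (limma 3.58.1), other scaling, filters and covariates, Entire libraries alone, and leaving out each library.

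The 33 genes and the other lists were chosen with earlier results of these data known. Genes named with values are Grn and Tmem106b, Slc17a6, Slc17a7, Camk2a, Nrgn, Gad1, Gad2, Slc32a1, Snap25, Stmn2 and Rbfox3, the 4 of the 33 with the smallest p in each comparison where any passed, and up to 4 of smallest p of each other list (otherwise the 3 of highest CPM). Pcp4, Syngr1 in Hemi, and Slc5a7 were added after their values were seen. Dlx6os1, matched by 2 identifiers, and Tafa1, matched by none, were left out. A further listed microglia marker is not reported here. Replicate numbers follow accession order and pair nothing.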

Additional observations from a re-analysis of the deposited data

Results flagged for a closer look

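In 68 pairs of a genotype of 4 or 5 libraries and a value, 18 held a library far from the others by Dixon's criterion. For normally distributed values chance meets it in about 1 in 20 groups. It was applied to CPM without a log, and the summed level varied 86.8-fold between libraries, so that rate need not hold here. On a log scale fewer libraries may be flagged, which was not tested. The genes share libraries, so these are not independent. Tmem106b KO Grn WT replicate 2, the Hemi library of its genotype, accounted for 14 of them. Its 33 genes summed to 19170 CPM, where the nearest of the other 3 libraries had 2788 CPM. In that library Snap25 was at 3342 CPM (nearest 541.9), Stmn2 at 630.2 CPM (nearest 101.1), Rbfox3 at 105.2 CPM (nearest 11.51) and Thy1 at 30.98 CPM (nearest 6.169). Slc17a6 was at 435.6 CPM (nearest 77.3), Gad1 at 632.3 CPM (nearest 53.8), Gad2 at 432.4 CPM (nearest 39.83) and Slc32a1 at 16.11 CPM (nearest 0.9302). Cplx1 was at 544.2 CPM (nearest 94.05), Stmn3 at 1451 CPM (nearest 189.7), Uchl1 at 880.6 CPM (nearest 110.0), Gap43 at 1050.0 CPM (nearest 133.4) and Celf4 at 740.7 CPM (nearest 100.3).

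In Tmem106b WT Grn HET replicate 2, also Hemi, Stmn2 was at 296.3 CPM (nearest 65.22), Nrgn at 32.07 CPM (nearest 9.87) and Celf4 at 318.5 CPM (nearest 99.44). In Tmem106b WT Grn KO replicate 3 Uchl1 was low, at 56.35 CPM (nearest 76.33).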

How the results depend on the processing

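Of the 33 genes, 0 were called for Grn KO in Tmem106b HET without covariates and 0 with sex only, against 26 with sex and dissection. With the summed cytoskeleton and channel genes as a covariate, an alternative added after seeing the data, 0 were called there and 0 for Hemi against Entire. This covariate is itself a sum of neuronal genes in the same libraries, so a loss of calls and changes of sign were built in. DESeq2 called 14 for Grn KO in Tmem106b WT, 8 for Tmem106b KO and 1, lower, for Tmem106b HET in Grn HET, where edgeR called 0 each. Leaving out 1 library at a time gave 0 to 10 genes for Grn KO in Tmem106b WT (10 without Tmem106b WT Grn KO replicate 2), 18 to 27 for Grn KO in Tmem106b HET, 28 to 33 for Hemi and 0 in the 7 other comparisons. The causes were not tested. Over all genes, the number called ranged over settings from 1 to 1170 for Grn KO in Tmem106b WT, from 16 to 5264 in Tmem106b HET and from 0 to 6297 for Hemi. With the summed list as a covariate, the estimate took the opposite sign for 17 of the 32 genes called in Hemi and for 5 of the 26 called for Grn KO in Tmem106b HET, each then short of the threshold. Under the other alternatives run, 0 estimates changed sign in these 2 comparisons. In the 8 comparisons where edgeR called 0 of the 33, some estimates changed sign, 0 of them past the threshold under the alternative. No paired analysis was possible because the labels give no replicate numbers. Depth limits Slc32a1 most, which had 0 counts in 3 libraries.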
